A study of Caenorhabditis elegans with 4 samples.

Results

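The regions described are the binding peaks of the transcription factor BLMP-1 on the X chromosome of Caenorhabditis elegans, taken as every entry of the deposited peak list placed on X. They numbered 1748 of 10159 peaks (17.2%), and the 8411 peaks on the 5 autosomes served for comparison. Binding was measured in hermaphrodite larvae of the first stage (L1), fed and kept at 20 °C, by sequencing the DNA bound to BLMP-1 after chromatin immunoprecipitation (ChIP-seq). The ChIP group held 2 libraries, made with a goat antibody against EGFP, and the input group held 2 libraries of unselected DNA from the same 2 extractions. All 4 came from strain OP109, an unc-119(ed3) mutant carrying the integrated transgene wgIs109, in which blmp-1 is fused to TY1, EGFP and FLAG tags and a wild-type unc-119 copy is included. The samples analysed here include no other genotype, no untagged strain and no other stage. The transgene was introduced by particle bombardment, whole larvae were used so that all tissues were mixed, and the labels name no mutation of the endogenous blmp-1. The chromatin protocol of the labels is worded for embryos, whereas the stage label is fed L1.

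BLMP-1 is a zinc-finger protein related to vertebrate PRDM1 (Blimp-1), a factor known from cell-fate decisions. In worms it is known for its part in the timing of larval development, in the epidermis and in the migration of the gonadal tip cells. The X chromosome is the worm's sex chromosome, held as a pair by hermaphrodites and singly by males, and in hermaphrodites a condensin-containing dosage compensation complex binds along it and lowers its expression. Its genes are spread more evenly than those of the autosomes, whose centres are gene-rich and whose arms recombine more and hold more repeats.

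For each peak the deposited list holds its position on WormBase build WS180 and the q value of the peak caller PeakSeq, and no value of a single library. There is therefore no replicate error, the sequencing depth is unknown, and no test of X against the autosomes was made. Each measure is given for X beside the mean, SD and range over the 5 autosomes, and X is described as outside or within that range. All positions are on WS180. The span of a chromosome runs from the start of its leftmost peak to the end of its rightmost, and peaks were placed by their midpoints. The genes, promoters and sequences at the peaks were not analysed here.

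BLMP-1 peaks were about as dense on X as on the autosomes. X had 100.4 peaks per Mb over a span of 17.4 Mb, and the autosomes averaged 104.4 ± 16.4 peaks per Mb (SD, n = 5 chromosomes; 78.4 to 119.9). Peaks covered 1.01 Mb of X, or 5.83% of its span, against 5.50 ± 0.765% of the autosomal spans (4.32 to 6.17%). X thus stood within the autosomal range in both measures, at 0.961 times the autosomal mean for density and 1.06 times for coverage.

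Along X, peaks were found in every stretch of 500 kb, and their number varied less than on any autosome. The 34 whole windows of 500 kb, laid from the leftmost peak, held from 31 to 75 peaks, with a median of 49. Windows on the 5 autosomes ranged from a lowest of 5 on V, 6 on IV, 8 on II, 19 on III and 22 on I to a highest of 84 on IV, 92 on V, 94 on III, 99 on I and 100 on II. Of the 161 autosomal windows, 36 (22.4%) held fewer peaks than the sparsest window of X and 28 (17.4%) held more than the densest. The lowest count of X depends on where windows begin, since the 295.6 kb before its leftmost peak are left out. The first Mb of the coordinate axis held 48 peaks on X, so not every 500 kb window laid from the axis start would reach 31. Counts and variation were not recomputed on such windows. The coefficient of variation of the window counts was 25.4% on X and 41.9 ± 8.97% on the autosomes (33.2 to 55.8%), so that X lay below all 5. When only the windows of the central part of each chromosome were counted (the middle 50% of the span, an alternative chosen after the data were seen), the coefficient was 22.0% on X and 22.9% on average on the autosomes (15.4 to 32.5%), and X lay within their range. X was thus more even than every autosome over the whole span, but not within the central part. Windows of the outer parts alone were not compared.

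**Figure D1:**
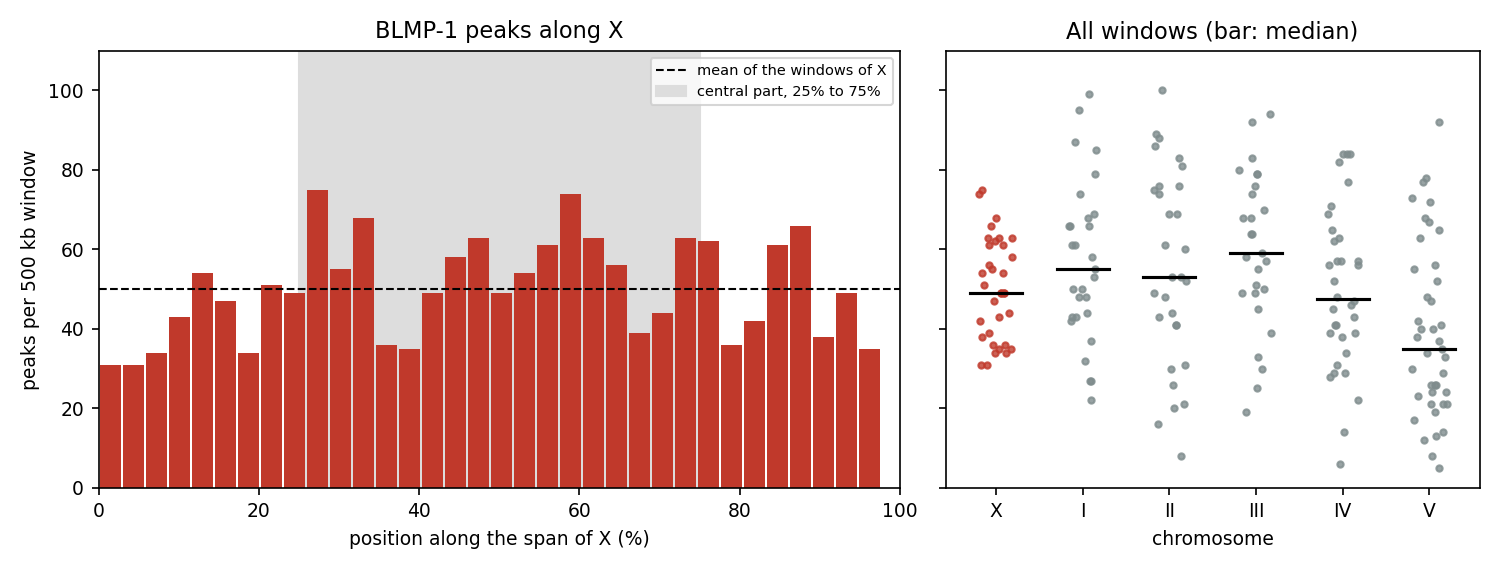
Left, number of BLMP-1 peaks in each 500 kb window along X, with position as a percent of the span, the mean of the windows as a dashed line and the central part shaded; right, the counts of all whole windows of X and of each autosome, 1 point per window, with the median as a bar. The windows, laid from the leftmost peak, hold 31 to 75 peaks on X, while every autosome has windows below 31 and above 75.

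The central part of X held 111.5 peaks per Mb, the left 25% of the span 82.4 and the right 25% 96.0. On the autosomes the central part held 134.8 ± 16.7 peaks per Mb (SD, n = 5; 110.1 on V to 149.1 on III), the left 25% 73.5 ± 19.6 (50.3 to 93.7) and the right 25% 74.5 ± 27.6 (37.7 to 102.7). Each of the 3 densities of X therefore lay within the autosomal range, near the low end for the centre and towards the high end for the right 25%. The ratio of central to outer density was 1.25 on X against 1.88 ± 0.306 on the autosomes, where it ran from 1.64 on I and III to 2.36 on V. X was below all 5 in this ratio, and it was also below all 5 in the stronger 50% of the list by q, where X had 1.30 and the autosomes 1.73 to 3.90.

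**Figure D2:**
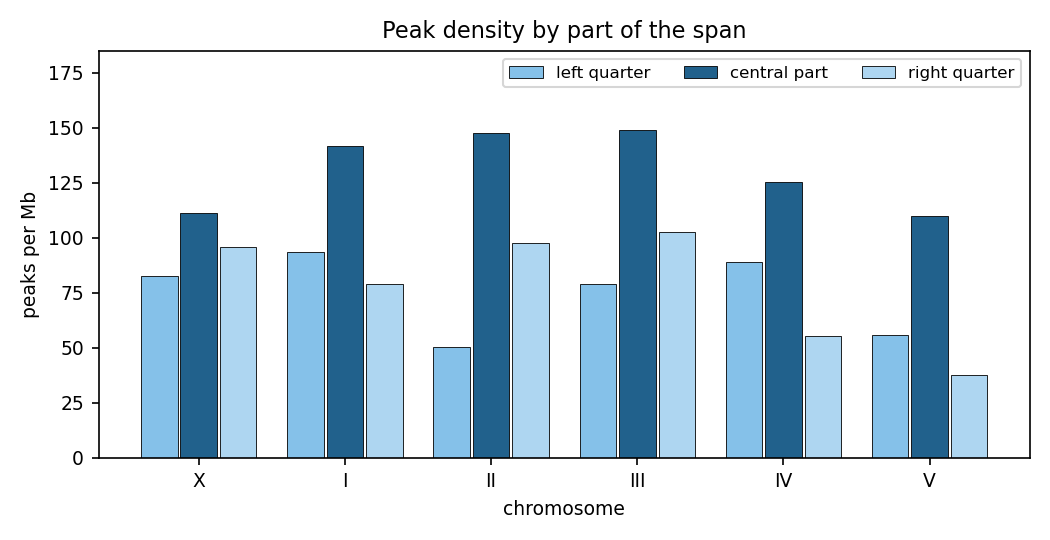
Peaks per Mb in the left 25%, the central part and the right 25% of the span of each chromosome, X first. The 3 bars of X run from 82.4 to 111.5, a smaller range than that of any autosome.

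Divided into 10 segments of equal length, numbered from the left, X was sparse at the left end and otherwise showed no steady trend. Segment 1 held 98 peaks, or 56.3 per Mb, and segment 2 held 174 (99.9 per Mb). Counts in segments 3 to 9 lay between 166 and 212, with the highest in segment 6 (212 peaks, 121.7 per Mb), and segment 10 held 150 (86.1 per Mb). Peaks of segment 1 were also the weakest by q, with a median −log10 q of 7.61, against 12.2 in segment 6 and 8.89 to 10.9 in the others. Median width ran from 448 bp in segment 7 to 506 bp in segment 2, and segment 1 had 467.5 bp. The strongest 10% of the whole list by q were spread along X, with 10 in segment 1, 24 in segment 4 and 15 to 22 in each of the rest. As a share of the segment's own peaks these were 10.2% in segment 1 and 14.5% in segment 4, against 10.1% on X as a whole. The left end thus held few strong peaks in proportion to its few peaks.

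The densest 500 kb windows of X were scattered from 4795645 rightward, with sparser windows between them. The window from 4795645 to 5295644 held 75 peaks, and the one from 5795645 to 6295644 held 68. The window from 10295645 to 10795644 held 74 peaks and the following one 63, a number also reached apart from it, from 8295645 to 8795644 and from 12795645 to 13295644. Towards the right end, 66 peaks lay between 15295645 and 15795644. At 100 kb, a window size chosen after the data were seen, 7 of 174 windows of X (4.02%) held at least 20 peaks, against 8.26 ± 3.52% of autosomal windows (3.85% on V to 11.7% on III). The fullest of these on X, from 5095645 to 5195644 and from 10595645 to 10695644, held 24 peaks each, and both lie in dense 500 kb windows.

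The sparsest windows were the first 3 and 3 others scattered along X. The windows from 295645 to 795644 and from 795645 to 1295644 held 31 peaks each, and the third, from 1295645 to 1795644, held 34. The window from 3295645 to 3795644 also held 34, and those from 6795645 to 7295644 and from 16795645 to 17295644 held 35 each. The windows next to these 6 that were not among them held 36 to 51 peaks. The end of the span beyond 17295644 does not fill a window and is not among these counts. Nor are the 295.6 kb before the leftmost peak.

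At its left end X had no peak before position 295645, whereas the leftmost peak of the autosomes started between 1358 on II and 49806 on IV. The first 3 peaks of X were a 652 bp peak from 295645 to 296296 (q = 1.76e-36), a 461 bp peak from 298828 to 299288 (q = 3.08e-03) and a 646 bp peak from 325578 to 326223 (q = 9.27e-05). The first Mb of the coordinate axis held 48 peaks on X, against 54 on V, 65 on II, 89 on III, 92 on IV and 104 on I. Counted over the first Mb from the leftmost peak instead, X had 62 and V, with 55, had fewer, so X then lay within the autosomal range of 55 to 105. Among the stronger 50% of the list, X had 21 in the first Mb of the axis and the autosomes 13 to 50, again within the range. How far reads could be mapped to the left end is unknown here.

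The right end of X was not sparse beside the right ends of the autosomes, though less dense than X as a whole (100.4 peaks per Mb). The last Mb before the rightmost peak end held 87 peaks on X and 81 ± 34.6 on the autosomes (SD, n = 5; 43 on IV to 126 on III). The last 3 peaks were those from 17684529 to 17685465 (937 bp, q = 1.40e-93), from 17685765 to 17686308 (544 bp, q = 1.43e-123) and from 17714371 to 17714571 (201 bp, q = 5.91e-04). The first 2 of these belong to a group of 4 peaks under 1000 bp apart, and the last stood alone, 28062 bp from its neighbour.

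Empty stretches between peaks took up about as much of the span of X as of the autosomal spans. Neighbouring peaks on X were separated by a median of 3471 bp (quartiles 1037 and 11412 bp), and the autosomal medians averaged 3407.6 ± 393.7 bp (SD, n = 5; 2938 to 4013 bp). Gaps of at least 50 kb numbered 55 on X and made up 23.0% of its span, against 23 to 72 gaps and 21.0 ± 7.69% on the autosomes (11.8 to 30.2%). Gaps of at least 100 kb numbered 5 on X, 3 on III, 4 on I, 9 on II, 12 on IV and 15 on V.

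The longest gap between peaks on X spanned 248 kb from 1712777 to 1960865, in the sparse segment 1. The stretch before the leftmost peak of X is longer, at 295.6 kb, but lies outside the span and is not counted as a gap. The 248 kb gap was bordered on its left by a single 164 bp peak of weak q (1712613 to 1712776, q = 2.21e-03), and before that peak lay another empty stretch of 85112 bp. From 1627501 to 1960865, 333 kb of X therefore held 1 peak. The longest stretch with 1 peak inside was 456 kb on V, 316 kb on II, 263 kb on IV, 207 kb on III and 152 kb on I, so X was within the range. The next gaps on X were 149 kb from 11798480 to 11947010, 147 kb from 17222358 to 17369423 near the right end, 115 kb from 6942196 to 7057342 and 111 kb from 12251369 to 12362736. Gaps of 86.0 to 96.5 kb lay at 16056757 to 16153267, 7682257 to 7773825, 677159 to 767379, 6552096 to 6638925 and 5856082 to 5942081. The 10 longest gaps were thus found in both arms and the centre, with 3 of them between 6552096 and 7773825.

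Peaks on X were wider than on every autosome in the body of the distribution. The median width was 470 bp on X (quartiles 334 and 688 bp) and averaged 412.9 ± 14.2 bp over the autosomes (SD, n = 5; 400 on I to 435.5 on V), a ratio of 1.14. Peaks of at least 1000 bp made up 10.8% of X (189 peaks) and 8.46 ± 0.403% of the autosomes (7.76 to 8.75%). At the extremes the order did not hold: peaks of at least 2000 bp made up 1.54% of X and 1.33 to 2.08% of the autosomes. Peaks of at most 50 bp were fewer on X, 23 or 1.32%, than on any autosome, where they made up 1.64 to 2.22%.

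**Figure D3:**
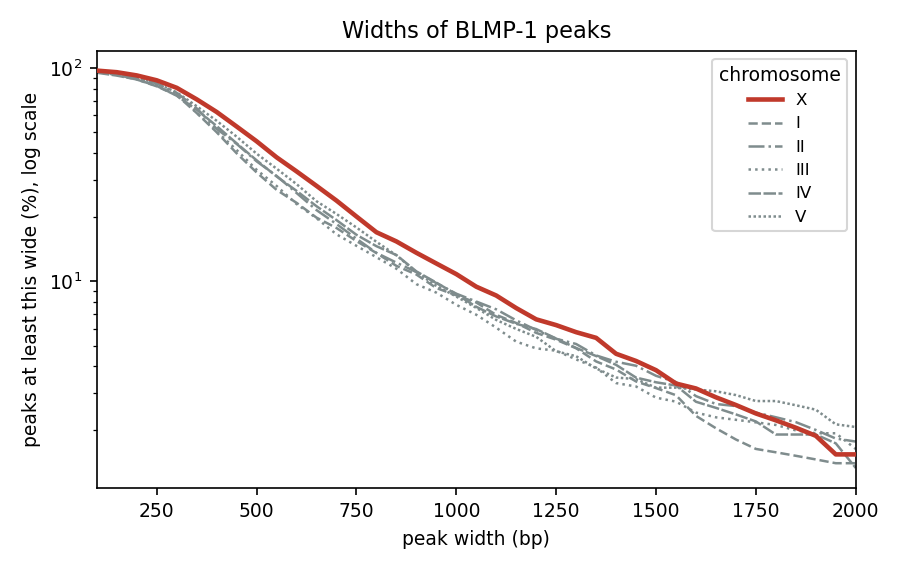
Percent of the peaks of each chromosome that were at least as wide as the value on the horizontal axis, in bp, on a log scale; X is the thick line. X lies above the autosomes around 500 and 1000 bp, where 10.8% of its peaks remain, and among them at 2000 bp, where 1.54% remain.

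Peaks of lower q were wider on every chromosome, so widths were also compared among peaks of like q. In the strongest 25% of the list the median width was 677.5 bp on X and 566 to 648 bp on the autosomes. It was 488 bp on X and 406 to 473 bp on the autosomes in the next 25%, and 393.5 bp on X against 335 to 365 bp in the 25% after that. In the weakest 25% X had 312 bp and the autosomes 270 to 293 bp. X therefore had the widest median of the 6 chromosomes in each of the 4 classes. The q value rests on the ChIP and input tags of a peak (inferred below), so peaks of like q need not have like tags. Widths at like numbers of tags were not compared. Peaks that stood alone and peaks with a neighbour under 1000 bp away were both wider on X, with medians of 443 bp against 378 to 405 bp for the lone and 513 bp against 437 to 483 bp for the others.

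The widest peak of X measured 11057 bp, from 6735159 to 6746215 (q = 3.80e-157). It was followed by peaks of 6888 bp at 9546618 to 9553505 and 4904 bp at 2212675 to 2217578, which were also among the 10 of lowest q. Wide peaks of weaker q stood beside these. The peak from 16928781 to 16932003 was 3223 bp wide with q = 5.35e-17, and the peak from 10765133 to 10768010 was 2878 bp wide with q = 5.41e-34. The others of the 10 widest were 3866 bp at 12175627 to 12179492, 3023 bp at 7585141 to 7588163, 2742 bp at 432210 to 434951, 2725 bp at 7951351 to 7954075 and 2574 bp at 6253423 to 6255996. The peak at 432210 is the only one of these 10 in the sparse first Mb, and no other peak lay within 8115 bp of it.

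By q, X lay within the autosomal range in its median and in its share of the strongest 10%, and above all 5 autosomes in its share of the strongest 25%. The median −log10 q was 9.92 on X and 10.1 ± 0.705 on the autosomes (SD, n = 5; 9.06 to 11.0), and the q values of X ran from 2.39e-258 to close to 0.01, the limit of the list. The strongest 10% of the list made up 10.1% of the peaks on X and 9.28 to 10.8% on the autosomes. The strongest 25% made up 25.9% on X and 24.1 to 25.5% on the autosomes. Among peaks of 200 to 1000 bp the share of X, 25.2%, was within the autosomal range of 24.2 to 26.3%.

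The 10 peaks of lowest q on X spread over the chromosome and differed in shape. The lowest q, 2.39e-258, belonged to the 6888 bp peak at 9546618, and the next, 3.80e-245, to a 2330 bp peak from 4808303 to 4810632. Narrower strong peaks lay at 3837182 to 3838285 (1104 bp, q = 1.03e-233), 3596244 to 3597596 (1353 bp, q = 3.28e-192), 13974358 to 13975695 (1338 bp, q = 1.25e-178) and 15309987 to 15311419 (1433 bp, q = 2.40e-182). The others were the 4904 bp peak at 2212675 (q = 8.62e-223), a 1625 bp peak at 2590625 to 2592249 (q = 1.70e-207), the 2574 bp peak at 6253423 (q = 3.15e-181) and a 2542 bp peak at 9401723 to 9404264 (q = 9.36e-170). Of these 10, 7 had another peak within 1000 bp, and the peak at 3596244 was the most isolated, 19277 bp from its neighbour.

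With peaks less than 1000 bp apart joined, the share of X peaks in groups was within the autosomal range, and groups of 5 or more were few. There were 296 groups of 2 or more on X, and they held 40.9% of its peaks, against 42.1 ± 2.86% on the autosomes (SD, n = 5; 40.2 to 47.1%). This share depended on the joining distance, since with 500 bp it was 18.8% on X, below all 5 autosomes (20.1 to 23.9%), and with 2000 bp 61.4% on X, within their range (55.6 to 63.5%). At 1000 bp there were 208 pairs, 60 groups of 3 and 24 groups of 4 on X. The autosomes had 171 to 219 pairs, 52 to 66 groups of 3 and 21 to 25 groups of 4, so X was within the range at each of these sizes. Groups of 5 or more numbered 4 on X, against 14 on III, 14 on IV, 12 on V, 10 on II and 9 on I. They held 1.32% of the peaks of X and 4.16 ± 0.825% of the peaks of the autosomes (2.98 to 4.85%). The count on X is small, and it rests on the joining distance: with 2000 bp, groups of 5 or more held 11.2% of the peaks on X and 11.4 to 16.7% on the autosomes, while with 500 bp X had 0% and the autosomes 0 to 1.28%.

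**Figure D4:**
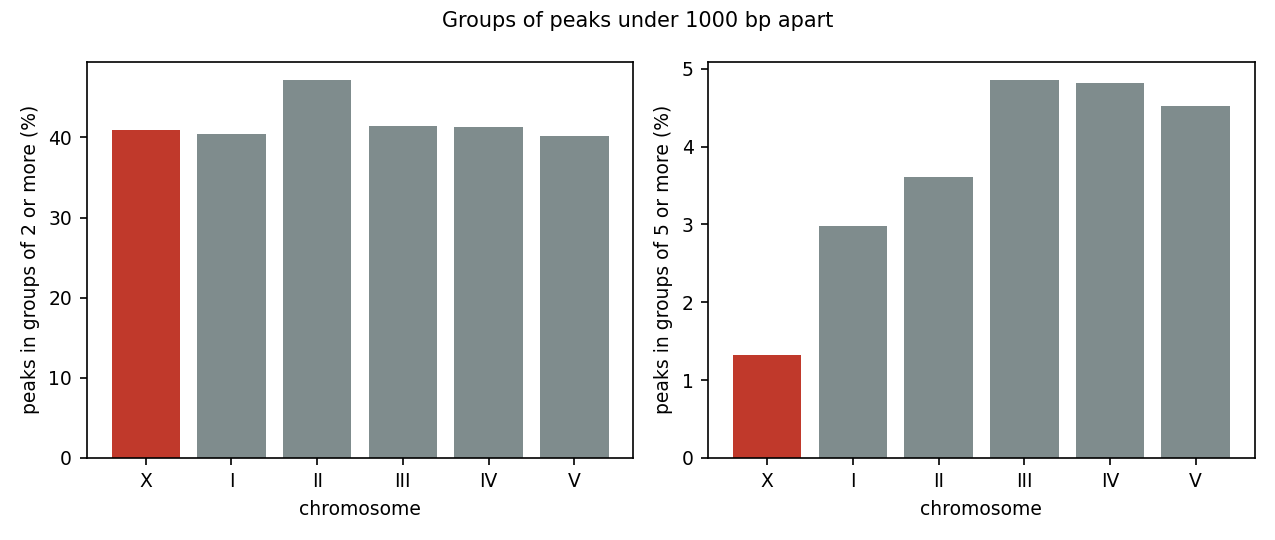
Percent of the peaks of each chromosome that lay in groups of 2 or more (left) and of 5 or more (right) peaks separated by less than 1000 bp, with X first. X is at 40.9% on the left, within the autosomal range, and at 1.32% on the right, below the lowest autosome at 2.98%.

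The largest group on X held 8 peaks in 9.25 kb, from 5116566 to 5125811, inside the densest 500 kb window. Its first 2 peaks were 1612 bp and 1166 bp wide with q = 5.09e-19 and 4.16e-31, and the fifth was 1145 bp wide with q = 1.57e-12. The other 5 were 142 to 449 bp wide with q from 4.48e-15 to 8.18e-03. Peaks made up 57.5% of the length of this group, and none of them belonged to the strongest 10% of the list. Another group lay to its left, from 5096071 to 5100299, with 4 peaks in 4.23 kb. In it, 2 peaks were in the strongest 10%, a 1225 bp peak with q = 8.21e-141 and a 679 bp peak with q = 1.80e-93 that lay 201 bp apart.

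The 3 groups of 5 differed in the same way. The group from 15309987 to 15315533 was led by the 1433 bp peak of q = 2.40e-182 at its left edge, and its other 4 peaks had q from 2.47e-15 to 5.91e-04. In the group from 10227158 to 10232684 the strongest peak, 673 bp with q = 1.58e-71, was the fourth of 5, and peaks covered 36.9% of the length. The group from 8565748 to 8569610 reached q = 2.64e-30 at a 781 bp peak and contained a peak of only 17 bp. Of the 24 groups of 4 on X, the one with the lowest q was that at 5096071, and the next was a group from 7583405 to 7591422, which was 83.6% peak by length and included the 3023 bp peak named among the widest.

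At a distance under 1000 bp, the share of strong peaks with a close neighbour was lower on X than on each autosome. Of the 177 peaks of X in the strongest 10% of the list, 97 (54.8%) had another peak less than 1000 bp away, against 63.2 ± 3.68% on the autosomes (SD, n = 5; 59.2 to 68.3%). When neighbours were sought only within the stronger 50% of the list, 26.5% of those peaks on X were in groups of 2 or more, against 31.1 to 37.5% on the autosomes. X was below all 5 in both. Other joining distances were not tried for either share. The median −log10 q of grouped peaks was 12.1 on X and 12.5 to 15.0 on the autosomes, and that of lone peaks was 8.94 on X and 7.57 to 9.17 on the autosomes.

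For single peaks, ChIP and input tags could be inferred from q, since PeakSeq tests tags of the ChIP against those of the input, scaled to it, as a binomial draw. Each q was read as the binomial tail at an even chance, multiplied by the candidates and divided by the rank of the peak. With 16906 candidates and ranks 12 above the place in the list, 1746 of the 1748 q values on X, and 10147 of all 10159, fitted a single pair of whole numbers within a relative tolerance of 1e-11. The 2 peaks of X without a match were those of 4904 and 11057 bp. The numbers are inferred and belong to the combined list, and the input is on the scale PeakSeq gave it. How the replicates were brought together in that list is not given. Medians were taken over peaks of at least 200 bp, 1612 on X and 7518 on the autosomes.

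On these numbers X peaks had a lower ratio of ChIP to input and more input. The median ratio was 1.92 on X (quartiles 1.56 and 2.50) and 2.07 ± 0.052 on the autosomes (SD, n = 5; 2.02 on V to 2.14 on IV). Inferred input was 355 tags per kb of peak on X and 311 ± 20.8 on the autosomes (277 on IV to 329 on III), or 1.14 times their mean. Inferred ChIP tags per kb were also higher on X, 714 against 669 ± 42.8 (611 to 704). Because X peaks are wider, the comparison was repeated on peaks of 300 to 600 bp, a range chosen after the data were seen. The ratio was then 1.94 on X and 2.03 to 2.23 on the autosomes, and input 360 tags per kb against 274 to 335. X lay below all 5 autosomes in the ratio and above all 5 in input in both sets. Only listed peaks can be examined in this way, so the input over the rest of X and the part of input in the lower ratio were not tested.

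**Figure D5:**
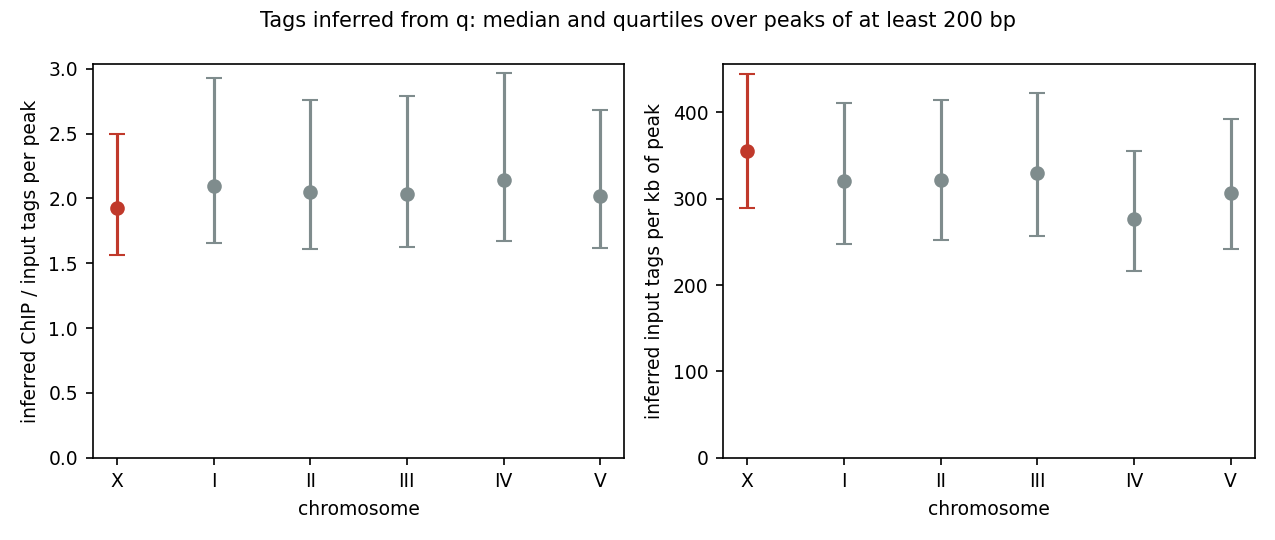
Inferred ratio of ChIP to input tags (left) and inferred input tags per kb of peak (right) for peaks of at least 200 bp, X first; points are medians over the peaks of a chromosome and bars run between the quartiles. X has the lowest median ratio, 1.92, and the highest median input, 355 tags per kb, although the quartile ranges of all 6 chromosomes overlap.

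Within X, inferred input per kb was lowest in segment 1, with a median of 319 tags per kb, and 335 to 383 in the other 9 segments. The median ratio lay between 1.81 in segment 7 and 2.08 in segment 6, and segment 1 had 1.95. The median ratio of the listed peaks was therefore not low at the sparse left end. Only peaks that passed the q limit have a ratio, so this says nothing of sites that were not listed. The 6888 bp peak of lowest q had 5659 ChIP and 2566 input tags, a ratio of 2.21, while the 1353 bp peak at 3596244 had 1689 and 384 tags, a ratio of 4.40. The 544 bp peak at 17685765, near the right end, reached 5.77 with 883 ChIP and 153 input tags. A low q on X was thus reached both by very wide peaks of modest ratio and by less wide peaks of higher ratio. These were not narrow for X, whose median width was 470 bp, and the 10 peaks of lowest q were all at least 1104 bp wide. Among the widest, the 3223 bp peak at 16928781 had 2715 ChIP and 2125 input tags, a ratio of 1.28. The lone weak peak beside the longest gap, at 1712613, rested on 73 ChIP and 40 input tags.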

How the data were processed

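The data are 1 combined list of BLMP-1 peaks from 2 ChIP and 2 input libraries of fed L1 larvae. Per the labels' protocols, 2% formaldehyde was used for fixation and 100 mM Tris to stop it. Per the file headers, the build is WormBase WS180 and PeakSeq is the source of the peaks, and the authors deposited a q-value for each peak, up to 0.01. The q-value is the authors' own and was used to rank and describe peaks and to infer tags. Aligner, filters, PeakSeq version and whether replicates were pooled before peak calling are not given in the sources used here, and depth is unknown.

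X and each autosome were measured in the same way: windows of 500 kb laid from the leftmost peak, the central 50% of the span, gaps between peaks, groups joined under 1000 bp, and widths. No test was made, since the list has no value per library. The SD over the 5 autosomes stood in for replicate spread when alternatives were judged. Named were the 10 peaks of lowest q, the 10 widest, the 10 longest gaps, the 6 groups with most peaks (ties in peak number ordered by lowest q), the 5 densest and 5 sparsest windows with ties, and the 3 outermost peaks at each end. A few other peaks and stretches were chosen after their values were seen. The part of the list and the measures were chosen with earlier results of these data known. The gene table in hand is of assembly WBcel235, and builds were not combined. The calculations were tested on simulated data. Tables were made in Python 3.11.15 with pandas 2.3.3, numpy 2.4.6 and scipy 1.17.1, and plots with matplotlib 3.10.9.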

Additional observations from a re-analysis of the deposited data

How the results depend on the processing

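Each comparison was recomputed as X divided by the mean of the 5 autosomes. Of 43 recomputed values for 13 measures, 34 moved by less than the SD over the autosomes and 9 moved further, and in 36 X kept its place below, within or above the autosomal range. The coefficient of variation of window counts, 0.606 of the autosomal mean, was 0.961 in the central part alone. The share of peaks in groups of 5 or more, 0.317 of the mean, was 0 in the stronger 50% of the list and with groups joined under 500 bp, and 0.768 with 2000 bp. The autosomes had 0 to 3.20% in the stronger 50% and 0 to 1.28% with 500 bp, so X was within their range in both. Shorter lists or distances leave fewer groups by construction. The share in groups of 2 or more, 0.971, was 0.791 in the stronger 50% and 0.883 with 500 bp, where X fell below all 5 autosomes, and 1.04 with 2000 bp, where X was within their range but above their mean. The share of X in the strongest 25%, 1.04, was 1.01 among peaks of 200 to 1000 bp. In the stronger 50%, the inferred ratio of ChIP to input was 0.896 instead of 0.930, and inferred input per kb 1.21 instead of 1.14; the cause was not tested. No paired analysis was possible because values of single libraries were not analysed here, and leaving out a replicate was likewise not possible. Spans end at the outermost peaks and understate chromosome lengths by unknown amounts. Unknown depth limits what can be said of weak sites and of empty stretches.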

Other observations

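Isolated peaks were weak on X as on the autosomes. On X, 40 peaks (2.29%) had no other peak within 20 kb, against 31 on III, 32 on II, 38 on I, 49 on IV and 97 on V (1.88 to 5.92%). Their median width was 383 bp on X and 367 to 428 bp on the autosomes, and their median −log10 q was 5.77 on X and 4.28 to 8.06 on the autosomes. Over all peaks the median −log10 q was 9.92 on X and 9.06 to 11.0 on the autosomes. Only 1 of the 40 belonged to the strongest 10% of the list, which made up 10.1% of all peaks on X. On the autosomes these were 2 of 38 on I, 1 of 32 on II, 1 of 31 on III, 1 of 49 on IV and 5 of 97 on V.

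At 100 kb, 11 of the 174 windows of X (6.32%) held 3 peaks or fewer, against 6.57 to 25.5% of the windows of single autosomes. These windows were laid from the leftmost peak, so the 295.6 kb of X before it, which hold no peak, are not among them. On the autosomes the leftmost peak started between 1358 and 49806. Laid from the start of the axis, more windows of X would be empty, and its place was not recomputed. The only counted window of X without a peak, from 1795645 to 1895644, lay inside the 248 kb gap. The autosomes had 0 empty windows on I, 1 each on II and III, 4 on IV and 10 on V.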
